A study of Mus musculus with 4 samples.

Results

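The genes described here encode the Wnt ligands, their Frizzled receptors and the Sfrp, Dkk and Rspo families of secreted modulators. Members were taken by symbol from the protein-coding genes of a mouse gene count table. Of 41 genes with such a symbol, 38 had at least 20 counts summed over the 4 libraries and are the members: 18 Wnt, 10 Fzd, 3 Sfrp, 3 Dkk and 4 Rspo genes, out of 21995 protein-coding genes in the table. The RNA came from cranial neural tubes dissected from mouse embryos at embryonic day 10.5, and each library came from a separate embryo. The 2 DCKO libraries are from embryos homozygous for floxed Lats1 and floxed Lats2 that also carried the transgene E2f1 Tg(Wnt1-cre)2Sor. The 2 Control libraries are from embryos without that transgene, and whether those carried floxed alleles is not stated. The Wnt1 control elements of the transgene drive Cre in dorsal neural tube cells and the neural crest they give rise to, so only a part of the dissected cells could lose the Lats1 and Lats2 kinases of the Hippo pathway.

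Wnt proteins are secreted, lipid-modified signals. In the beta-catenin branch they bring a Frizzled receptor together with the co-receptors LRP5 or LRP6, which spares beta-catenin from destruction and lets it activate genes with TCF and LEF factors. Other branches act on cell polarity and movement. Sfrp proteins bind Wnts outside the cell, Dkk1 and Dkk2 bind LRP5 and LRP6, and R-spondins raise receptor levels through LGR proteins and the ligases ZNRF3 and RNF43. In the embryonic brain, Wnt1 and Wnt3a from the dorsal midline are known to promote dorsal progenitors and neural crest.

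Library totals ranged from 41798361 to 55137810 counts. Levels within a gene are given as CPM, counts scaled to library totals first adjusted by the trimmed mean of M values (TMM). Lats1 had 44.2 and 65.6 CPM in the Controls, against 30.0 and 29.7 in DCKO, and Lats2, whose floxed exons are not given in the sources used here, had 26.7 and 13.3 against 21.2 and 35.3. Xist had 10837 and 7786 counts in the Controls, against 8 and 22 in DCKO, so embryo sex, like the transgene itself, cannot be told apart from the group. Genes of the ribosomal RNA cluster on chromosome 17 took 12.4% to 13.2% of Control counts and 24.7% to 30.3% of DCKO counts. All 12 listed neural progenitor markers were detected in every library, and 8 of them fell in DCKO. The summed levels of the 12 were 2428 to 2608 TPM, the length-scaled unit the authors deposited, in Control and 1483 to 1626 in DCKO. Much of that DCKO sum came from Vim (761 and 728 TPM in the Controls, against 1079 and 951 in DCKO). Vim had a positive log2 fold change without a call (0.70, SE 0.20, adjusted p 0.0702). The other markers without a call were Fabp7 (-2.56, SE 0.91), Prom1 (-0.16, SE 0.16) and Cdh2 (0.12, SE 0.16). Of 13 tested surface ectoderm markers 11 rose, with sums of 14.5 to 19.0 TPM in Control and 214 to 403 in DCKO. Among those that rose, Trp63, Cldn4, Cldn6 and Krt19 had 0 to 16 counts per Control library. They passed the filter on low counts with both DCKO libraries but not both Control libraries at its cutoff. The keratins Krt5 and Krt14 were at 0 counts in both Controls. Each was also at 0 in 1 DCKO library, with 36 and 13 counts in the other. Of 16 cranial mesenchyme markers 11 rose (166 to 177 TPM against 494 to 720), as did 8 of 12 endothelial markers (99.6 to 128 against 241 to 317). Of 9 tested pericyte and mural markers 6 rose and 1 fell (54.0 to 69.4 TPM against 263 to 549). Much of that DCKO sum came from Acta2 (7.24 and 4.07 TPM against 123 and 292) and Tagln (7.83 and 6.56 against 65.0 and 187). The pericyte markers Rgs5 and Kcnj8 had no call. Cnn1, which rose, had 4 and 17 counts in the Controls, so only Control 2 reached the cutoff. Of 10 neuron markers 3 fell (994 to 1039 against 266 to 541), and of 13 erythroid markers 8 fell (7246 to 8859 against 1561 to 1773). The marker counts here and below are at an adjusted p under 0.05 in the edgeR fit. They stand beside 8.93% higher and 8.11% lower over all 19207 tested genes. In such bulk samples, fewer cells of a type and less RNA per cell cannot be told apart.

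Members moved in both directions in DCKO. Of 37 tested members, 8 were higher and 5 were lower at an adjusted p under 0.05, together 35.1%, beside 17% of the 19207 genes tested. The higher ones were Wnt6, Wnt11, Wnt10a, Wnt10b, Wnt4, Wnt9a, Wnt2b and Fzd4, and the lower ones Wnt7a, Wnt5b, Fzd10, Fzd9 and Sfrp2. Over all genes, 8.93% were higher and 8.11% lower. Rspo4, Wnt10a, Wnt10b and Wnt6 passed the filter on low counts with both DCKO libraries but not both Control libraries at its cutoff: 1 Control library reached it for Wnt6, Wnt10a and Wnt10b, and 0 for Rspo4. Of the other 33 tested members 5 were higher and 5 lower, together 30.3%. The share over all genes under the same limit was not computed. The median log2 fold change was 0.23 over the 37 tested members, -0.02 over those 33 and 0.03 over all tested genes. The groups did not overlap for 26 of the 38 members, beside 66.4% of all tested genes: 15 members had both DCKO values above the Controls (33.6% of all genes) and 11 below (32.9%). By family, 7 of 17 tested ligands were higher and 2 lower. The higher ligands include Wnt6, Wnt10a and Wnt10b, which passed the filter with only 1 Control library at its cutoff. Of 10 receptors 1 was higher and 2 lower, and 1 of 3 Sfrp genes was lower. Among the Dkk and Rspo genes 0 passed in the edgeR fit with TMM scaling and all libraries. In that fit 2 of 3 Dkk and 1 of 4 Rspo genes had an unadjusted p under 0.05. So did 6896 of all 19207 tested genes. Dkk2 and Dkk3 passed in DESeq2, with adjusted p-values of 0.00460 and 0.0390, and in some other edgeR fits. Without Control 1, 1 member was higher and 2 were lower, and without Control 2, 1 was higher and 1 lower; Wnt6 and Fzd10 kept their calls in both of these fits. Without DCKO 1, 9 were higher and 6 lower, and without DCKO 2, 11 and 6.

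**Figure D1:**
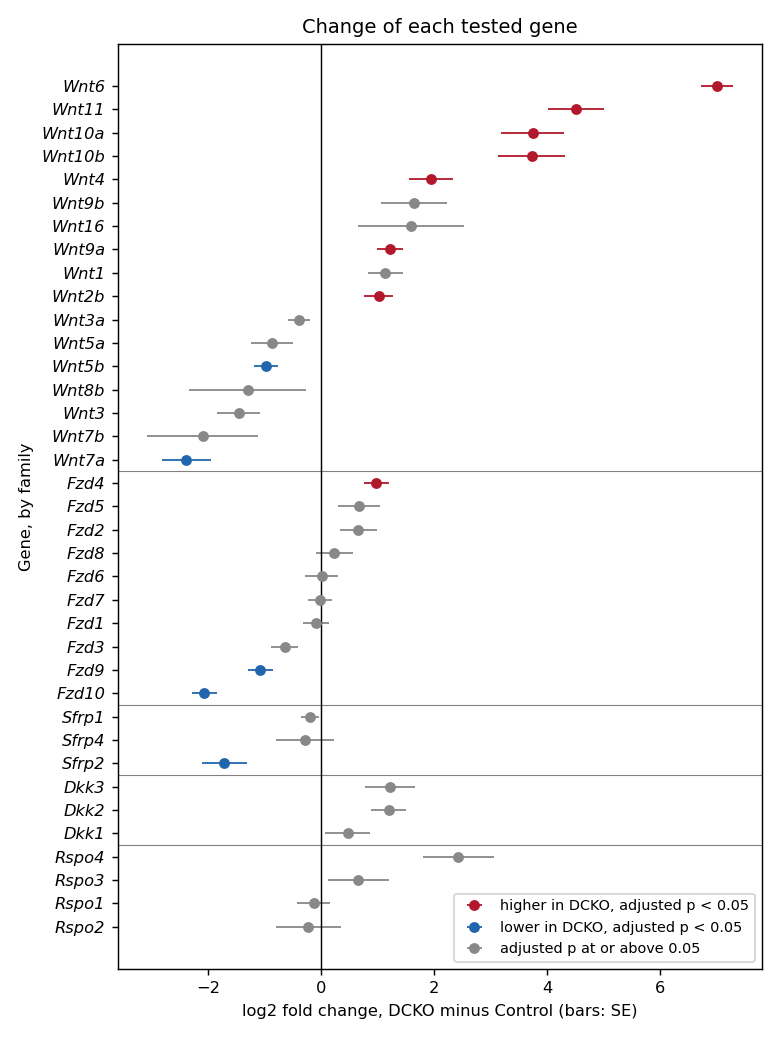
Log2 fold change of DCKO minus Control (x axis) with its standard error (bars) for the 37 tested genes (y axis), grouped by family from ligands at the top to Rspo genes at the bottom and coloured by call. Wnt6 lies farthest to the right at 7.01 and Wnt7a farthest to the left at -2.39.

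Wnt6, a ligand of the embryonic surface ectoderm, showed the largest rise of the tested members. It lies at chr1:74771892-74785322 on the plus strand of GRCm38. Its level was 0.192 and 0.257 CPM in Control, from 12 and 13 counts, and 27.9 and 30.1 CPM in DCKO, from 1117 and 1113 counts. Both DCKO libraries were alike and far above both Controls. The log2 fold change was 7.01 (SE 0.29, adjusted p 0.00280), about 129-fold, and it lay between 6.80 and 7.19 with adjusted p-values up to 0.0201 when any 1 library was left out. Its call was lost in 1 of 16 alternatives, limma on unfiltered log2(TPM + 1), where no gene of these families passed. Of 13 tested surface ectoderm markers 11 were higher in the same libraries. Like Wnt6, the markers Trp63, Cldn4, Cldn6 and Krt19 among them passed the filter without both Control libraries at its cutoff. The part of the markers in the result was not tested.

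The window around the Wnt6 start site is shown because it belongs to the member with the largest change. It spans 250 bases before to 50 after the start, from RefSeq on GRCm38.p6, plus strand, 5′ to 3′, at chr1:74771642-74771941.
Wnt6: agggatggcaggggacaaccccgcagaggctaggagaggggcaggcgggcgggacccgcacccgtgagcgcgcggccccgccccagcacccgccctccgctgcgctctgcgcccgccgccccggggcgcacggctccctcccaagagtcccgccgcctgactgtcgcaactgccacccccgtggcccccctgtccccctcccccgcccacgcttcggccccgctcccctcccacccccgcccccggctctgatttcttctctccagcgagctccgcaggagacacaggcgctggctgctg

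Other ligands that were nearly silent in Control also rose. Wnt11, which in zebrafish guides gastrulation movements and in mouse acts in kidney branching, had 0.303 and 0.237 CPM in the Controls, against 8.12 and 4.36 in DCKO. Its log2 fold change was 4.51 (SE 0.50, adjusted p 0.00944). Wnt10a, a ligand of ectodermal appendages such as teeth and hair, had 0.128 and 0.237 CPM in the Controls, against 1.95 and 2.95 in DCKO (3.74, SE 0.56, adjusted p 0.0169). Wnt10b, known for its action on fat and bone precursors, went from 0.144 and 0.316 CPM to 2.27 and 3.82 (3.73, SE 0.60, adjusted p 0.0189). The DCKO values of each gene exceeded its Control values, but the Control levels rest on 8 to 19 counts a library, so the size of the rise is uncertain. Without Control 1 and Control 2 in turn, adjusted p-values were 0.0517 and 0.0609 for Wnt11, 0.103 and 0.0808 for Wnt10a, and 0.103 and 0.0752 for Wnt10b. Without Control 2, the log2 fold change of Wnt10b was 4.35. All 3 passed without either DCKO library.

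Wnt4, Wnt9a and Wnt2b, which were expressed in Control as well, were higher by smaller factors. Wnt4, needed for kidney tubule formation and female gonad development, had 5.08 and 5.18 CPM in the Controls, against 12.6 and 26.8 in DCKO (log2 fold change 1.94, SE 0.39, adjusted p 0.0303). Most of that rise came from DCKO 2, and without DCKO 2 the log2 fold change was 1.30 (adjusted p 0.0127). Wnt9a, a ligand of developing joints, had 8.69 and 9.13 CPM in the Controls, against 17.8 and 23.7 in DCKO (1.22, SE 0.23, adjusted p 0.0261). Wnt2b, a ligand of the cortical hem and the retinal margin, had 6.58 and 4.9997 CPM in the Controls, against 12.4 and 11.0 in DCKO (1.01, SE 0.25, adjusted p 0.0499). The groups did not overlap for any of the 3 genes, but Wnt2b sat at the edge of the threshold and kept its call in 4 of 16 alternatives, against 12 for Wnt4 and 10 for Wnt9a. Without Control 1 and Control 2 in turn, adjusted p-values were 0.149 and 0.147 for Wnt4, 0.178 and 0.162 for Wnt9a, and 0.189 and 0.311 for Wnt2b, and Wnt2b had 0.0581 without DCKO 1.

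**Figure D2:**
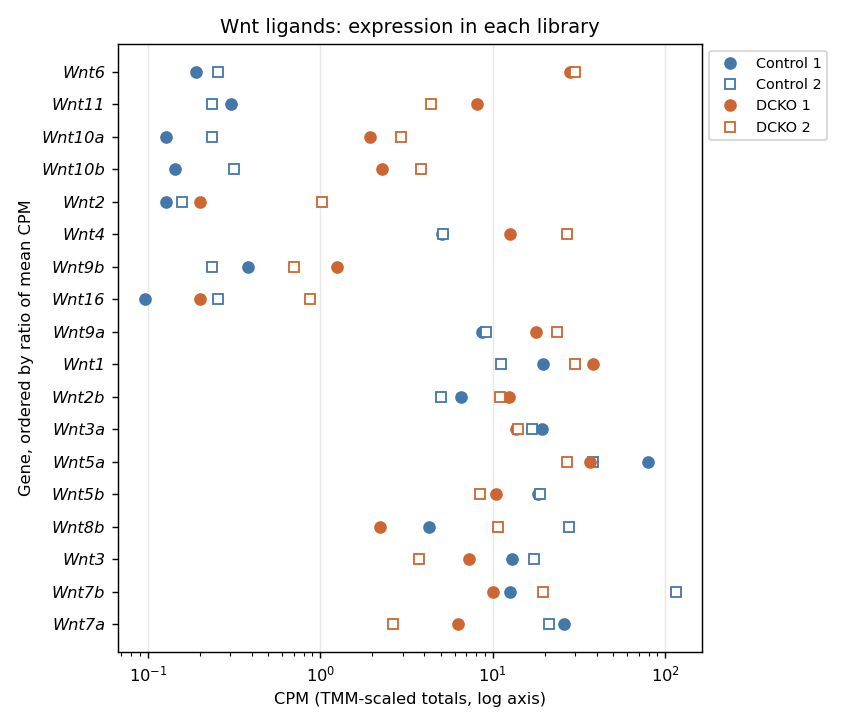
CPM of the 18 Wnt ligands (y axis, ordered by the ratio of group means) in each library on a log x axis, with circles for replicate 1 and open squares for replicate 2. Wnt6, Wnt11, Wnt10a and Wnt10b lie under 0.32 CPM in both Controls and above 1.9 CPM in both DCKO libraries. Wnt7b spreads widely within Control, and Wnt8b within each group.

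Wnt7a and Wnt5b were the ligands that fell. Wnt7a, which with Wnt7b drives blood vessel ingrowth into the brain, had 25.9 and 21.2 CPM in the Controls, against 6.30 and 2.65 in DCKO. Its log2 fold change was -2.39 (SE 0.44, adjusted p 0.0252). Wnt5b, a relative of Wnt5a that acts mainly outside the beta-catenin branch, had 18.3 and 18.8 CPM in the Controls, against 10.4 and 8.39 in DCKO (-0.98, SE 0.21, adjusted p 0.0363). Both genes were lower in both DCKO libraries than in either Control. Fbxl14 lies within the span of Wnt5b on the opposite strand, shares 0 exon bases with it and had 3282 and 2484 counts in the Controls, against 890 and 998 in DCKO. Whether strand was used in counting is not stated. Without Control 1 and Control 2 in turn, adjusted p-values were 0.105 and 0.0847 for Wnt7a and 0.210 and 0.205 for Wnt5b, and without DCKO 1 the log2 fold change of Wnt7a was -3.16. Of the 12 neural progenitor markers, 8 were lower in the same libraries, and their part in these falls was not tested.

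Wnt1 and Wnt3a, the ligands of the dorsal midline, did not pass. Wnt1, which is also needed to form the midbrain and anterior hindbrain, had 19.6 and 11.2 CPM in the Controls, against 37.9 and 29.9 in DCKO, so both DCKO libraries were above both Controls. At a log2 fold change of 1.14 (SE 0.31), its adjusted p was 0.0601, above the threshold, and it passed in 4 of 16 alternatives, with an adjusted p of 0.00782 in DESeq2 and 0.0361 without DCKO 2. The transgene of the DCKO embryos uses Wnt1 regulatory sequences, and whether it holds transcribed parts of Wnt1 is not stated in the sources used here, so any reads from it cannot be told apart from those of the gene. Wnt3a had 19.3 and 16.98 CPM in the Controls, against 13.7 and 13.9 in DCKO (-0.39, SE 0.19, adjusted p 0.201). Of 10 listed roof plate and dorsal midline markers 2 rose, beside 8.93% of all tested genes, at a list median of 0.25. The summed levels of the 10 overlapped, at 147 to 152 TPM in Control and 145 to 190 in DCKO. Those that rose were the BMP ligand Bmp6 (log2 fold change 2.29, SE 0.16) and the pseudoreceptor Bambi (1.22, SE 0.17). The roof plate factor Lmx1a had 0.33 (SE 0.19, adjusted p 0.267). Markers without a call ranged from Gdf7 at 1.14 (SE 0.30, adjusted p 0.0545), with both DCKO libraries above both Controls, to Ttr at -1.17 (SE 1.15). Only Ttr and Msx1 (-0.26, SE 0.36) had negative values. Ttr had 0.671 CPM in Control 1 and 11.9 in Control 2, against 2.45 and 3.14 in DCKO, so its negative value rests on Control 2.

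Wnt7b and Wnt8b differed more within Control than between the groups. Wnt7b had 12.6 CPM in Control 1 and 115 in Control 2, with 10.05 and 19.5 in DCKO 1 and DCKO 2. Wnt8b, a ligand of the hippocampal primordium and cortical hem, had 4.25 and 27.7 CPM in the Controls, against 2.22 and 10.7 in DCKO. For both genes Control 2 was the highest library, and the groups overlapped. The log2 fold change of Wnt7b was -2.10 (SE 0.98, adjusted p 0.187) with all libraries, -2.96 (adjusted p 0.0377) without Control 1 and 0.20 (adjusted p 0.846) without Control 2. That of Wnt8b was -1.30 (SE 1.03, adjusted p 0.412), -2.11 without Control 1 and 0.57 without Control 2. Genes of the forebrain, listed after the values of Wnt7b were seen, were also highest in Control 2, except Otx2, a factor of forebrain and midbrain, which was highest in DCKO. Emx2, a factor of the dorsal forebrain, had 2.11 and 21.8 CPM in Control 1 and Control 2 against 1.70 and 1.87 in DCKO, and Fezf2 had 0.0319 and 13.8 against 1.00 and 3.03. The midbrain and hindbrain gene En2 went the other way, with 136 in Control 1 and 79.1 in Control 2, whereas the hindbrain gene Hoxa2 had 1.95 in Control 1 and 2.98 in Control 2. Their part in the spread of Wnt7b and Wnt8b was not tested.

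**Figure D3:**
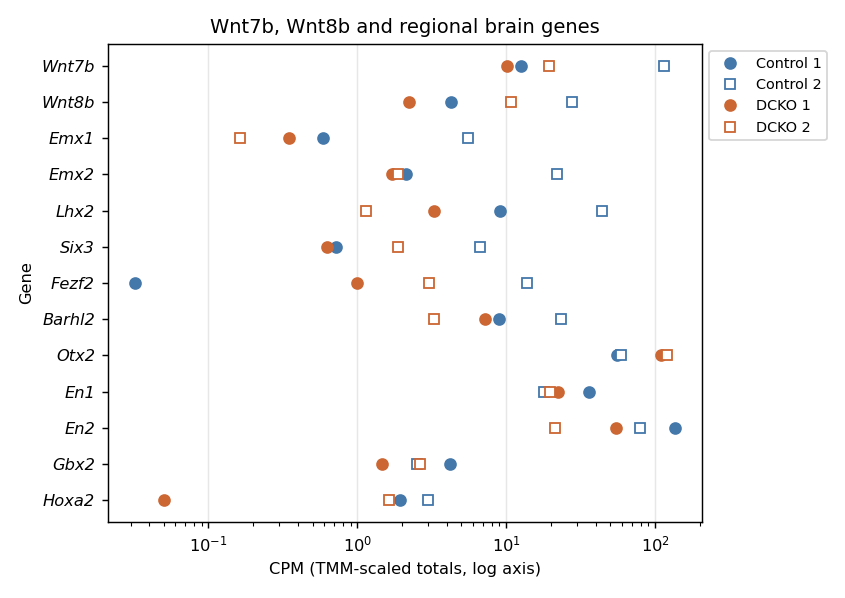
CPM of Wnt7b, Wnt8b and 11 regional brain genes (y axis) in each library on a log x axis. Control 2 (open blue squares) is the highest library for Wnt7b, Wnt8b and the forebrain genes Emx1, Emx2, Lhx2, Six3, Fezf2 and Barhl2, and also for Hoxa2, whereas En1, En2 and Gbx2 are higher in Control 1 than in Control 2.

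The remaining ligands gave values without a call. Wnt3, needed for gastrulation, had 12.97 and 17.4 CPM in the Controls, against 7.27 and 3.73 in DCKO, for a log2 change of -1.46 (SE 0.38, adjusted p 0.0541), and passed in 8 of 16 alternatives. Wnt5a, a guide of outgrowth and polarity, had 78.9 and 38.0 CPM in the Controls, against 36.8 and 26.8 in DCKO (-0.88, SE 0.38, adjusted p 0.159), and most of that difference came from Control 1, since without it the value was -0.26. Wnt9b, a kidney and facial ligand, had 0.383 and 0.237 CPM against 1.25 and 0.704 (1.64, adjusted p 0.109). The rarest members, just inside the minimum of 20 summed counts, were Rspo4 with 52, Wnt16 with 59 and Wnt2 with 62. Wnt2 had 8 and 8 counts in the Controls, against 8 and 38 in DCKO and was not tested, since it failed the filter on low counts. Just outside, Sfrp5 had 7 counts, all in DCKO 2, Wnt8a had 6, all in Control 1, and Dkk4 had 2, both in Control 2.

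The make-up of the ligand pool, compared between genes on the length-scaled TPM of the authors, was different in DCKO. Summed over the 18 ligands, TPM was 126 and 142 in Control and 100 and 120 in DCKO, so the DCKO sums were somewhat lower, on a scale where the median of genes at a mean TPM of at least 1 was lower by 0.19 (log2). Within each library, Wnt6 made up 0.136% and 0.134% of ligand TPM in Control and 17.8% and 19.1% in DCKO. Wnt1 made up 12.2% and 5.09% in Control and 20.9% and 16.3% in DCKO. The share of Wnt7a was 12.8% and 7.39% in Control and 2.61% and 1.08% in DCKO. Wnt5a and Wnt7b had the highest mean TPM in Control, but not in the same library: Wnt5a was 29.3% of the pool in Control 1 and 9.79% in Control 2, and Wnt7b 6.42% and 40.8%. In DCKO the highest means were those of Wnt6 (17.8 and 22.8 TPM) and Wnt1 (20.9 and 19.6 TPM), whose order is not resolved by their spread.

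**Figure D4:**
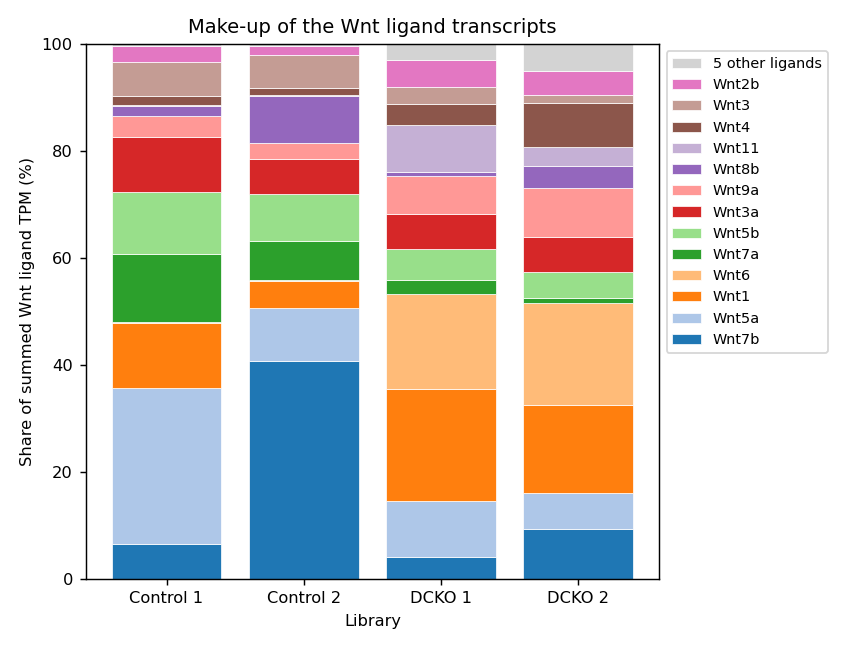
Share of the summed Wnt ligand TPM (y axis, percent) taken by each ligand in each library (x axis), with ligands under 5% in all 4 libraries pooled as other ligands. Wnt6 goes from 0.136% and 0.134% in Control to 17.8% and 19.1% in DCKO, and Wnt7b takes 40.8% in Control 2.

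Several Wnt genes are neighbours, and the log2 fold changes of neighbours did not always have the same sign. Wnt6 and Wnt10a, 6193 bases apart on chromosome 1 and on the same strand, were both higher. Wnt10b and Wnt1, in divergent orientation 11706 bases apart on chromosome 15, had log2 fold changes of 3.73 and 1.14. On chromosome 11 the signs were opposed in both pairs of divergent neighbours. Wnt3a had -0.39 and Wnt9a 1.22 at a distance of 16175 bases, and Wnt3 had -1.46 and Wnt9b 1.64 at 24328 bases. Of these, Wnt6, Wnt10a, Wnt10b and Wnt9a passed the threshold. Closest paralogs mostly had the same sign, with 3.74 and 3.73 for Wnt10a and Wnt10b, 1.22 and 1.64 for Wnt9a and Wnt9b, -0.88 and -0.98 for Wnt5a and Wnt5b, -1.46 and -0.39 for Wnt3 and Wnt3a, and -2.39 and -2.10 for Wnt7a and Wnt7b, although Wnt7b depends on Control 2. The difference between neighbours or paralogs was not tested.

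Among the Frizzled receptors, Fzd10 fell most. Fzd10, a receptor known from the dorsal neural tube, had 145 and 146 CPM in the Controls, against 40.7 and 28.6 in DCKO. Its Control libraries were nearly equal, and both DCKO libraries were far below them. The log2 fold change was -2.07 (SE 0.22, adjusted p 0.00919), a 4.20-fold lower level, and it passed without any 1 library, at -2.36 to -1.84. On TPM, Fzd10 was the leading receptor in Control with 30.5% and 32.6% of Frizzled TPM and had 13.4% and 7.10% in DCKO. Fzd9, known from hippocampal precursors, had 15.4 and 15.8 CPM in the Controls, against 8.17 and 6.55 in DCKO (-1.08, SE 0.22, adjusted p 0.0321). Fzd4, the receptor for norrin in blood vessels of the retina, had 8.80 and 10.8 CPM in the Controls, against 17.7 and 20.7 in DCKO (0.97, SE 0.22, adjusted p 0.0392). For both, the groups did not overlap. In the fit to library totals, where the median of all genes was -0.32, the adjusted p of Fzd4 was 0.0877 with a log2 fold change of 0.62. Without Control 1 and Control 2 in turn, adjusted p-values were 0.195 and 0.192 for Fzd9 and 0.274 and 0.179 for Fzd4. Beside Fzd4, 8 of 12 endothelial markers were higher, and their part in its rise was not tested.

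The other 7 receptors did not pass, with log2 fold changes from -0.65 to 0.66. Fzd3, which acts in neural tube closure and axon guidance together with Fzd6, had 461 and 303 CPM in the Controls, against 243 and 243 in DCKO (-0.65, SE 0.23, adjusted p 0.111). Fzd2, which overlaps in function with Fzd7, was the leading receptor in DCKO by mean TPM, with 26.7% and 39.5% of Frizzled TPM against 14.9% and 18.3% in Control. Its CPM were 79.9 and 92.4 in Control and 91.8 and 179 in DCKO (0.65, SE 0.33, adjusted p 0.216), with overlapping groups, and without DCKO 1 it had 1.05 (adjusted p 0.0123) but without DCKO 2 0.09 (0.759). Fzd7, Fzd1 and Fzd6 had log2 fold changes of -0.02, -0.10 and 0.01 with standard errors of 0.21, 0.23 and 0.29, and overlapping groups. Fzd8 had 0.23 (SE 0.33) and its relative Fzd5 0.66 (SE 0.37, adjusted p 0.257). The antisense model Gm38058 shares 1233 of the 6915 exon bases of Fzd5. It had 32 and 32 counts in the Controls, against 52 and 60 in DCKO. Part of the Fzd5 counts, 138 and 110 against 109 and 156, is thus uncertain in its assignment.

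**Figure D5:**
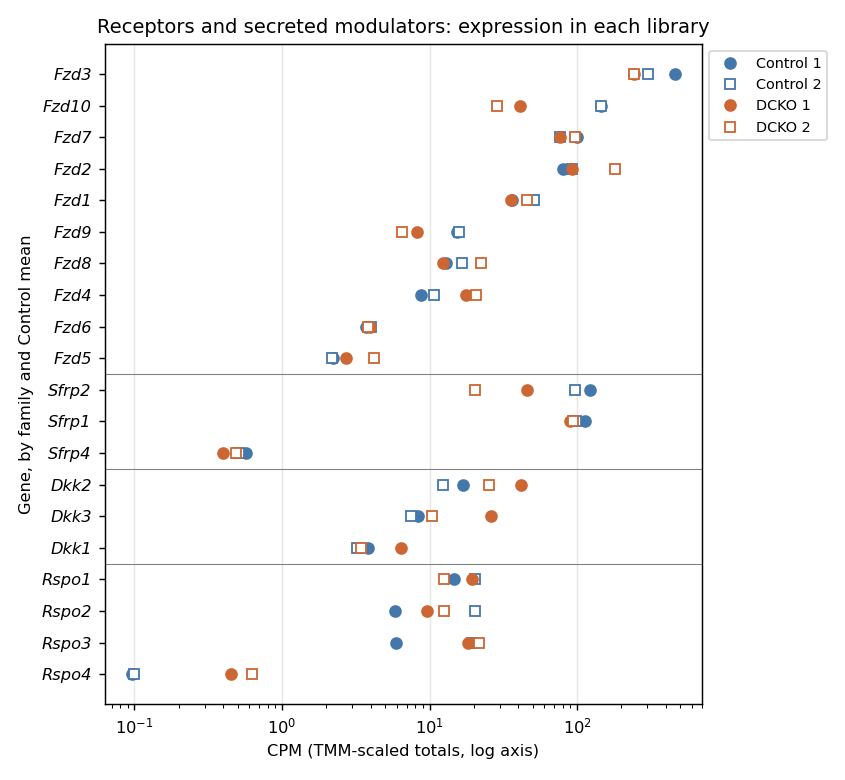
CPM of the 10 Frizzled, 3 Sfrp, 3 Dkk and 4 Rspo genes (y axis, families separated by lines) in each library on a log x axis. Fzd10 and Sfrp2 have both DCKO libraries (orange) to the left of both Control libraries (blue), and the groups overlap for Fzd1, Fzd2, Fzd6, Fzd7, Fzd8, Dkk1, Rspo1, Rspo2 and Rspo3.

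Of the secreted modulators, Sfrp2 alone passed in the edgeR fit with TMM scaling and all libraries. Sfrp2, a Wnt-binding protein of neural progenitors, had 123 and 96.9 CPM in the Controls, against 46.1 and 20.5 in DCKO. The log2 fold change was -1.72 (SE 0.40, adjusted p 0.0423), with adjusted p-values of 0.157 and 0.110 without Control 1 and Control 2, and the value was -2.43 without DCKO 1 and -1.25 without DCKO 2. The antisense model Gm26771, which shares 347 of the 2153 exon bases of Sfrp2, had 1100 and 620 counts in the Controls, against 135 and 73 in DCKO, so part of the Sfrp2 counts is uncertain in its assignment. Sfrp1 had 113 and 98.4 CPM in the Controls, against 90.2 and 94.5 in DCKO (-0.19, SE 0.16, adjusted p 0.433), and its share of Sfrp TPM was 29.2% and 31.3% in Control and 46.4% and 67.4% in DCKO. Sfrp2 remained the larger part in DCKO 1, at 53.4%. Sfrp4 had under 0.6 CPM in every library.

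Dkk2 and Dkk3 had higher levels in both DCKO libraries than in either Control but did not pass in that fit. Dkk2, an LRP co-receptor antagonist of mesenchyme, had 16.9 and 12.3 CPM in the Controls, against 41.9 and 25.1 in DCKO (1.19, SE 0.31, adjusted p 0.0538), and passed in 4 of 16 alternatives: DESeq2, upper-quartile scaling (0.0491), the replicate block (0.0436) and the fit without DCKO 2 (0.00940). Dkk3, a divergent member of the family, had 8.42 and 7.45 CPM in the Controls, against 26.2 and 10.5 in DCKO (1.21, SE 0.45, adjusted p 0.116), and without DCKO 2 it reached 1.72 (0.00393). Dkk1, the inducer of head structures, had 3.85 and 3.22 CPM against 6.37 and 3.41, with overlapping groups. Of 16 cranial mesenchyme markers 11 were higher in the same libraries, and their part was not tested. Among the R-spondins, Rspo1 had the highest mean TPM in both groups, with 14.7 and 20.4 CPM in the Controls, against 19.4 and 12.6 in DCKO (-0.13, SE 0.30). Rspo2 and Rspo3 were each more than 3 times as high in Control 2 as in Control 1, at 20.4 against 5.80 CPM and 19.3 against 5.89. Their DCKO levels were 9.65 and 12.6 CPM for Rspo2 and 18.1 and 21.5 for Rspo3. The antisense model Gm48159 shares 404 of the 3090 exon bases of Rspo3 and had 72 and 167 counts in the Controls, against 119 and 122 in DCKO. Rspo4 had 0.0958 and 0.0988 CPM in Control, from 6 and 5 counts, and 0.450 and 0.622 in DCKO (adjusted p 0.0538).

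Over all tested genes 8.93% were higher and 8.11% lower, and the counts in lists of genes that act with these proteins stand beside those shares. Of 19 tested genes of Wnt secretion and co-reception, 10 were higher, with a median log2 fold change of 0.93. The glypicans Gpc3 and Gpc4, cell-surface carriers of growth factors, rose by 2.12 (SE 0.15) and 3.12 (SE 0.34), and the Wnt5a receptor Ror1 by 2.13 (SE 0.19). Kremen2, a Dkk receptor, had 0 counts in both Controls and 2.82 and 2.30 CPM in DCKO, and so passed the filter through DCKO alone. Its DCKO mean was 47.8-fold above the mean Control floor of 3 counts per library. Chosen after their values were seen, the Wnt acyltransferase Porcn rose by 1.17 (SE 0.23), the Wnt carrier Wls by 1.48 (SE 0.16), and Reck and Adgra2, which receive Wnt7a and Wnt7b in brain endothelium, by 1.57 (SE 0.23) and 0.93 (SE 0.18). Beside Reck and Adgra2, 8 of 12 endothelial markers rose, and their part was not tested. Of the 19 secretion and co-reception genes, 9 had no call, and some of these had negative values. Lgr5 had -1.69 (SE 0.48, adjusted p 0.0657) and Lgr4 -0.90 (SE 0.28, adjusted p 0.0822). Both were lower in both DCKO libraries than in either Control. Tpbg had -0.27 (SE 0.44) and Znrf3 -0.15 (SE 0.19), with overlapping groups. Of 11 tested other secreted or extracellular modulators 1 was higher, a share near the 8.93% of all genes. It was Sostdc1, an antagonist of Wnt and BMP signals, at 1.09 and 1.54 CPM in the Controls, against 27.5 and 31.0 in DCKO (4.48, SE 0.28).

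Of 25 genes of the beta-catenin relay 8 were lower, with a median of -0.32. The beta-catenin cofactors Bcl9 (-1.31, SE 0.18) and Pygo1 (-1.27, SE 0.21), the transcription factor Tcf7l2 (-1.40, SE 0.22) and the neural APC relative Apc2 (-3.06, SE 0.51) fell. Beta-catenin itself, Ctnnb1, had -0.20 (SE 0.16, adjusted p 0.396). Among 18 tested targets of beta-catenin, 2 were higher and 2 lower, at a median of -0.09, which is near the shares over all genes (8.93% and 8.11%) and gives no result for the list. Neurog1, a proneural factor, fell by 4.27 (SE 0.37) and the cyclin Ccnd1 by 1.35 (SE 0.28), whereas Bambi rose by 1.22 (SE 0.17) and the receptor ligase Rnf43 by 2.25 (SE 0.55). The lists share members: Bambi is also counted among the roof plate markers that rose, and Rnf43 among the higher secretion and co-reception genes. Axin2, a widely used readout of beta-catenin signalling, had 89.0 and 89.1 CPM in the Controls, against 59.8 and 61.7 in DCKO, below both Controls, for a log2 change of -0.55 (SE 0.15, adjusted p 0.0589). Lef1 had -0.32 (SE 0.37) and Sp5 0.50 (SE 0.19), and neither passed. Of 16 planar cell polarity genes 2 were higher and 4 lower, with a median of 0.15. Scrib (-1.50, SE 0.15), Celsr2 (-2.29, SE 0.30) and Celsr3 (-1.74, SE 0.39) fell and the Wnt5a receptor Ror2 rose by 1.08 (SE 0.23). Ror2 is also counted among the higher secretion and co-reception genes. Of 12 neural progenitor markers 8 were lower beside the relay and polarity genes, and their part was not tested.

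RefSeq promoter windows, 250 bases before to 50 after a start site on GRCm38.p6, were found for 26 of the 38 members and 12 of the 13 called ones. They were searched on both strands for CATTCC, the core of the TEAD sites through which YAP and TAZ act, and for CTTTGA, the core of TCF/LEF sites. The first was in 1 of 15 windows of called members and in 14.7% of 32851 windows of all genes. The second was in 2 of 15 windows and in 16.0% of all. The windows of called members that held either are shown with the match in capitals, each 5′ to 3′ along its gene. A match describes letters and not a bound site. In Wnt11 (chr7:98834862-98835161, plus strand) the TCF/LEF letters, on the reverse strand, begin 50 bases before the start, and in Wnt5b (chr6:119449337-119449636, minus strand) they begin 71 bases before it. In a second Wnt5b window (chr6:119467162-119467461, minus strand) the TEAD letters begin 13 bases after the start. Wnt11 rose and Wnt5b fell.
Wnt11: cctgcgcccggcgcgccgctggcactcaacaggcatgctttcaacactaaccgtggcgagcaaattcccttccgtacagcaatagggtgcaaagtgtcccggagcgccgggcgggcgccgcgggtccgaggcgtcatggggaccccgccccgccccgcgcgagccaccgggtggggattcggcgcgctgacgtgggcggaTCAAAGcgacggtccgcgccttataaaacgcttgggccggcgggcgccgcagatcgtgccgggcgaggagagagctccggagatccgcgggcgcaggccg
Wnt5b, first window: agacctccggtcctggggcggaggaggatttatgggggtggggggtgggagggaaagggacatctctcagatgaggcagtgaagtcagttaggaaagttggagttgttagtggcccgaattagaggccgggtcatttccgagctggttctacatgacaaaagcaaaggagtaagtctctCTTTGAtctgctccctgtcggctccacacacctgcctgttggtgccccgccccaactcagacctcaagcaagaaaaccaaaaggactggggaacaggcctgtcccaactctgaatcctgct
Wnt5b, second window: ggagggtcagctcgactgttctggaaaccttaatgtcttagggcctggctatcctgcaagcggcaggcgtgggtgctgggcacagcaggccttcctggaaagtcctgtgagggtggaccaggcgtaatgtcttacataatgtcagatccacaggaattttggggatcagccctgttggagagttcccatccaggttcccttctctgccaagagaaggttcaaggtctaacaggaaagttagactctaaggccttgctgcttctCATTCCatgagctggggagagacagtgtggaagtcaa

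The authors' deposited table of differential expression lists 30 of the 38 members, 16 of them with a false discovery rate under 0.05. Of the 13 members called here, 11 are among those 16 in the authors' deposited table, and Wnt10a and Wnt10b are not in it. The other 5 passed in the authors' deposited table alone: Wnt1 (log2 fold change 1.20, false discovery rate 0.00235), Dkk2 (1.25, 0.00146), Dkk3 (1.27, 0.0160), Wnt3 (-1.41, 0.00549) and Wnt7b (-2.06, 0.0143). In the quasi-likelihood fit these genes had adjusted p-values between 0.0538 and 0.187. The sign was the same for 29 of the 30 listed members, and Fzd7, the exception, had 0.04 in the authors' deposited table and -0.02 in the fit.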

How the data were processed

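RNA-seq of 4 libraries, each from a separate embryo, was used. The authors deposited raw read counts per Ensembl gene, TPM per gene, and a table of log2 fold changes with p-values and false discovery rates. Per the submitters' processing notes, R 3.3.2, limma 3.30.13, edgeR 3.16.5, StringTie and TopHat2 2.1.1 were used with builds mm10 and GRCm38, in roles not given. Whether strand was used in counting is not given in the sources used here. Symbols and coordinates are from GENCODE M21 on GRCm38, which matched 54495 of 54532 gene IDs.

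Counts were tested with edgeR 4.0.16 (quasi-likelihood, group only, 2 residual degrees of freedom, TMM scaling, filterByExpr at min.count 10 and min.total.count 15), two-sided, with Benjamini-Hochberg adjustment over 19207 genes and a threshold of 0.05. SE is the log2 fold change over the root of F. With n = 2 per group, exact permutation cannot give a p below 0.333, so only the fit across genes is used. Floors of 3 counts cover counting error only and are 0.0479 to 0.0812 CPM. Alternatives used DESeq2 1.42.0, limma 3.58.1, other scalings, no filter, TPM, a replicate block and the removal of each library. The members and gene lists were chosen with earlier results of these data known. Named were all called members, Wnt1, Wnt3a, Wnt6, the highest member of each family in each group by TPM, the members nearest 20 counts, neighbours within 100 kb, and up to 4 called genes of each pathway list by p-value. Other genes were named outside this rule, among them Axin2, Lef1, Sp5, Ctnnb1, Lmx1a and the remaining members. Proteins were not used here.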

Additional observations from a re-analysis of the deposited data

How the results depend on the processing

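Of 206 values of the 13 called members under 16 alternatives each where tested, 152 kept their call, 54 kept their direction and lost the call, and none took the opposite sign. For the members without a call, 22 of 374 values passed. Members called higher numbered 8 with all libraries and 1 to 11 when 1 library was left out, and those lower 5 and 1 to 6. Over all genes, 1716 were higher and 1558 lower, with ranges of 155 to 2619 and 72 to 2565 when 1 library was left out. With 1 library left in a group, that library is assumed to vary like the other group. Scaled to library totals, 8 members and 3744 genes were lower, and 1219 genes higher. DESeq2 gave 2602 higher and 2594 lower genes. On TPM filtered at a mean of 1, log2(TPM + 1) gave 4 members and 998 genes higher, and log2(TPM + 0.1) gave 3 members and 774 genes higher and 978 lower. On unfiltered log2(TPM + 1), limma called 0 members in either direction and 1 gene each way. In that fit 14 members had an unadjusted p under 0.05, as did 6845 of all 30715 genes. The cause of the few calls was not tested. The replicate numbers are shared by the groups, but nothing shows that they pair the embryos (the deviations of Control 1 and DCKO 1 correlate at -0.04 across genes). With the replicate block, 1002 genes were higher and 776 lower, with 7 members higher and 3 lower. Members with a few counts per library, such as Wnt2 and Wnt16, are limited by depth.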
